A study of Homo sapiens with 6 samples.

Results

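NF-kB subunits and their feedback inhibitors were examined in THP-1 cells transfected with microRNA (miRNA) mimics. The list held 10 genes: the subunit genes NFKB1, NFKB2, RELA, REL and RELB, the inhibitor genes NFKBIA and NFKBIE, and the feedback genes TNFAIP3, BIRC3 and TRAF1. Members were taken by gene symbol from the annotation of the array, and 9 of the 10 genes had a named probe set, 1 each, among 17709 probe sets with a single gene symbol and 21448 probe sets in all. BIRC3, which encodes an inhibitor-of-apoptosis ubiquitin ligase, had no named probe set and was not analysed here. All 9 measured genes were above background on all 6 arrays, with background set at a log2 signal of 5.39, a level that 95% of 349 olfactory receptor probe sets did not exceed.

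THP-1 is an established human monocytic leukaemia line. The cells were differentiated into macrophage-like cells with the phorbol ester PMA at 100 ng/ml for 2 days and were then exposed for 24 h to a mimic mixed with the transfection reagent lipofectamine RNAiMAX. The mimic cultures received the let-7e-5p, let-7d-3p, miR-146a-5p, miR-151a-3p or miR-130a-3p mimic, and the control culture received a negative control mimic (mimic NC), so every culture carried PMA, the reagent and a small RNA. RNA of each culture was hybridised to 1 Affymetrix Human Clariom S array, and the deposited values are log2 signals, on which a difference of 1 is a doubling. Each group was 1 array of 1 line, so no difference below has a replicate check or a test, and a difference compares these cultures only. Groups follow the sample titles, since the treatment text of every sample names a let-7a-5p mimic instead. The title of the control ends in a 2 that no label explains.

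NF-kB is a family of dimeric transcription factors that waits in the cytoplasm of resting cells, bound by IkB proteins. Signals from Toll-like, interleukin-1 and tumour necrosis factor receptors activate the IkB kinase (IKK) complex, IkB is degraded, and the freed dimers enter the nucleus and drive genes of inflammation and survival. Among these genes are those of IkB proteins, ubiquitin-editing enzymes and several subunits, which form feedback loops and make their transcripts common readouts of the pathway in macrophages. A separate branch runs through the kinase NIK, encoded by MAP3K14, the processing of the NFKB2 product and its partner RELB.

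A miRNA mimic is a double-stranded RNA that loads one mature miRNA into Argonaute, where bases 2 to 8, the seed, pair with transcripts. The mature sequences are shown because they are what set the mimic cultures apart, and RefSeq (GRCh38.p14) gave 3 of the 5. They are written from the 5′ end with the seed in capitals. The let-7d-3p locus is at chr9:94178895-94178916, the let-7e-5p locus at chr19:51692793-51692814 and the miR-146a-5p locus at chr5:160485372-160485393, all on the plus strand.
hsa-let-7d-3p: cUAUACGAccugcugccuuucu
hsa-let-7e-5p: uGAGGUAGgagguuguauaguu
hsa-miR-146a-5p: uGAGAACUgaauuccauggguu
No seed was shared among these 3. The let-7d-3p mimic is the arm opposite to the one that carries the let-7 family seed, and that family seed is the one in let-7e-5p. The other mimics were miR-130a-3p and miR-151a-3p.

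The arrays were alike in overall level, with medians between 6.92 and 6.95 and signals between 1.88 and 17.99. The labels call the cells both THP-1 and lymphocyte-like. Of the monocyte and macrophage markers, 9 of 9 measured were above background on all arrays, with a mean signal between 13.8 and 13.98 per array, whereas 1 of 6 T cell markers was, and the mean signal of the T cell list lay between 4.04 and 4.47. Of 4 B cell markers 3 were above background, with array means of 6.09 to 6.52, and MS4A1 was not. Of 4 epithelial markers 1, KRT8, was above background on all arrays, with array means of the list from 4.96 to 5.43. Of 3 fibroblast markers 2 were, COL1A2 and PDGFRA, with array means from 6.43 to 6.75. Over 10 housekeeping genes the median difference from mimic NC lay between -0.06 and 0.04 log2 with the 5 mimics, while single ones ran from -0.22 for SDHA with miR-130a-3p to 0.44 for HPRT1 with miR-151a-3p, as large as the NFKB1 difference given next.

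The NFKB1 gene encodes a precursor that is processed into a DNA-binding subunit lacking its own activation domain. Its log2 signal was 11.11 with let-7e-5p, 10.81 with let-7d-3p, 10.70 with miR-146a-5p, 10.84 with miR-151a-3p and 10.72 with miR-130a-3p, against 10.67 with mimic NC. The let-7e-5p array stood 0.27 above the next one, and the control was the lowest of the 6. The let-7e-5p difference was 0.44, or 1.36-fold.

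NFKB2, the precursor of the non-canonical branch, was ordered differently. It had 10.18 with let-7e-5p, 10.21 with let-7d-3p, 10.51 with miR-146a-5p, 10.48 with miR-151a-3p and 10.33 with miR-130a-3p, against 10.32 with mimic NC. Here the let-7e-5p array was the lowest and the miR-146a-5p array the highest. Within the let-7e-5p culture, therefore, NFKB1 stood 0.44 above and NFKB2 0.14 below its own level in the control.

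RELA, the main transactivating subunit of the canonical dimer, was the steadiest gene of the list. Its signal was 10.79 with let-7e-5p, 10.81 with let-7d-3p, 10.83 with miR-146a-5p, 10.78 with miR-151a-3p and 10.63 with miR-130a-3p, against 10.77 with mimic NC. Apart from the miR-130a-3p array, all arrays lay within 0.06 of the control. REL encodes c-Rel, a subunit most abundant in blood cells, and had 10.51 with let-7e-5p, 10.47 with let-7d-3p, 10.67 with miR-146a-5p, 10.56 with miR-151a-3p and 10.36 with miR-130a-3p, against 10.43 with mimic NC. Its highest array was miR-146a-5p, 0.24 above the control, and its lowest was miR-130a-3p.

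RELB encodes the subunit that pairs with the processed NFKB2 product. Its signal was 9.26 with let-7e-5p, 8.83 with let-7d-3p, 8.94 with miR-146a-5p, 8.80 with miR-151a-3p and 8.49 with miR-130a-3p, against 8.44 with mimic NC. All 5 mimic arrays were above the control, the miR-130a-3p array by 0.05 and the let-7e-5p array by 0.82. The let-7e-5p level was 1.77-fold, the miR-146a-5p level 1.41-fold, the let-7d-3p level 1.31-fold and the miR-151a-3p level 1.28-fold that of the control.

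**Figure D1:**
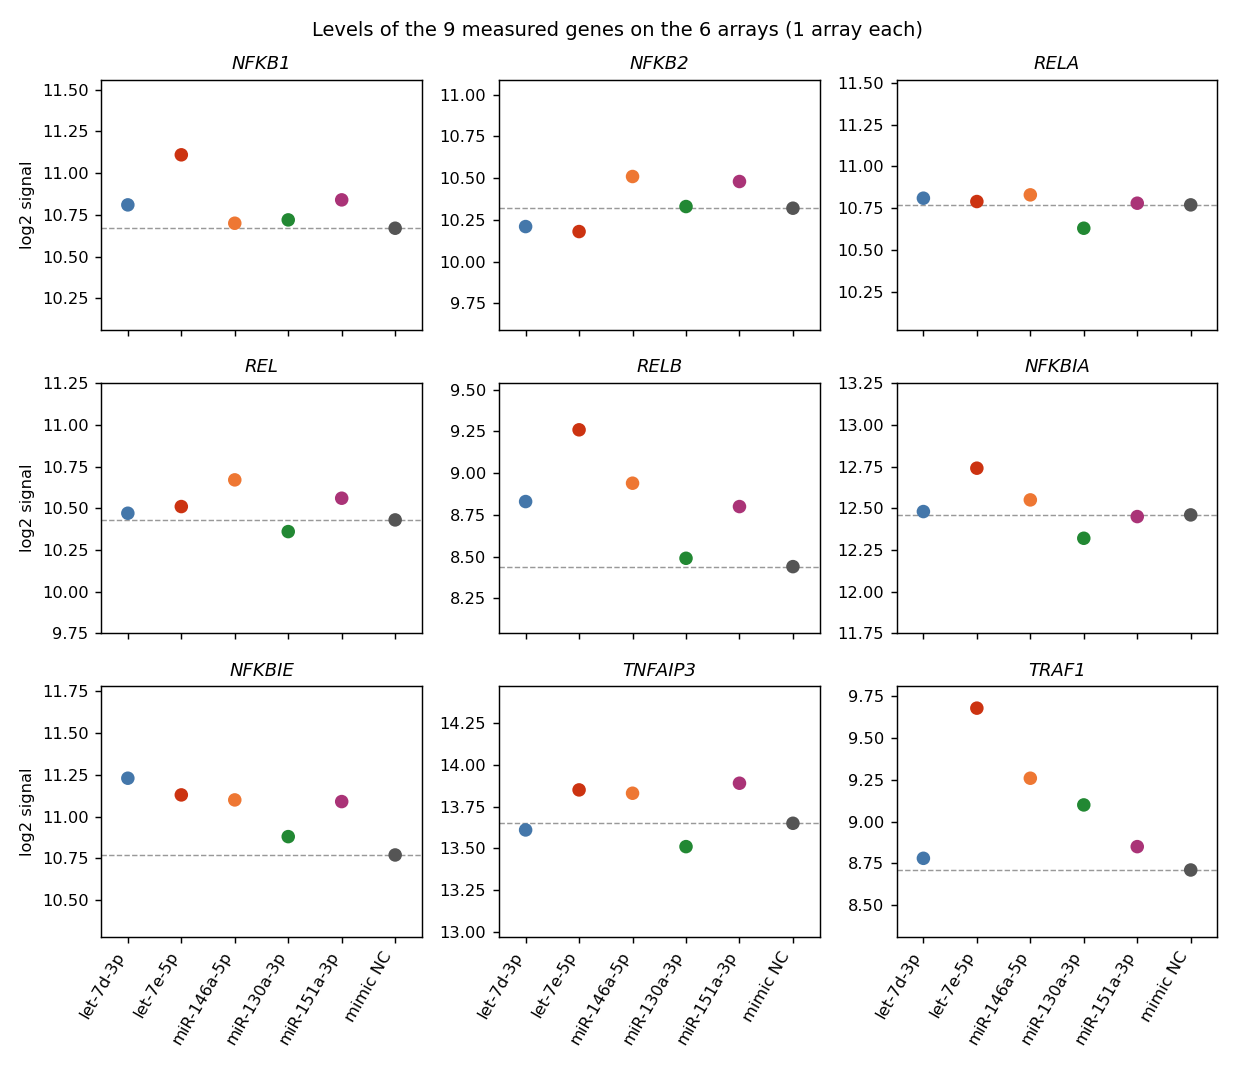
Log2 signal of each measured gene (y axis, every panel spanning the same number of log2 units) on the 6 arrays (x axis), 1 point per array, with the dashed line at the mimic NC level. TRAF1 and RELB spread most, with let-7e-5p on top at 9.68 and 9.26, and RELA least.

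The inhibitors came next in the order of the pathway. NFKBIA encodes IkB-alpha, the IkB protein that is degraded and resynthesised in the fast feedback loop. It had 12.74 with let-7e-5p, 12.48 with let-7d-3p, 12.55 with miR-146a-5p, 12.45 with miR-151a-3p and 12.32 with miR-130a-3p, against 12.46 with mimic NC. The let-7d-3p and miR-151a-3p arrays were within 0.02 of the control, the let-7e-5p array was 0.28 above it and the miR-130a-3p array 0.14 below it. NFKBIE encodes IkB-epsilon, a slower IkB protein, and had 11.13 with let-7e-5p, 11.23 with let-7d-3p, 11.10 with miR-146a-5p, 11.09 with miR-151a-3p and 10.88 with miR-130a-3p, against 10.77 with mimic NC. Every mimic array was above the control for NFKBIE, by 0.46 with let-7d-3p, the only gene of the 9 for which let-7d-3p gave the highest array.

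TNFAIP3 encodes a ubiquitin-editing enzyme that shuts off signals to IKK. Its signal was 13.85 with let-7e-5p, 13.61 with let-7d-3p, 13.83 with miR-146a-5p, 13.89 with miR-151a-3p and 13.51 with miR-130a-3p, against 13.65 with mimic NC. The let-7e-5p, miR-146a-5p and miR-151a-3p arrays lay 0.18 to 0.24 above the control, and let-7d-3p and miR-130a-3p lay 0.04 and 0.14 below it.

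TRAF1, a signalling adaptor of tumour necrosis factor receptors and a well-known NF-kB target, had the widest spread. Its signal was 9.68 with let-7e-5p, 8.78 with let-7d-3p, 9.26 with miR-146a-5p, 8.85 with miR-151a-3p and 9.10 with miR-130a-3p, against 8.71 with mimic NC. The let-7e-5p level was 1.96-fold, the miR-146a-5p level 1.46-fold and the miR-130a-3p level 1.31-fold that of the control. With let-7d-3p and miR-151a-3p the differences were 0.07 and 0.14.

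Set against all probe sets, 7 of the 9 genes varied less than the median probe set. Over 12290 named probe sets above background on at least 1 array, the range from the lowest to the highest of the 6 arrays had a median of 0.50 log2, with the middle of the distribution from 0.34 to 0.72. RELA, at 0.20 or 1.15-fold, had a wider range than 6.0% of these probe sets. REL at 0.31, NFKB2 at 0.33, TNFAIP3 at 0.38, NFKBIA at 0.42, NFKB1 at 0.44 and NFKBIE at 0.46 also lay below the median. RELB, at 0.82, had a wider range than 82.1% of the probe sets, and TRAF1, at 0.97, than 90.0%.

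**Figure D2:**
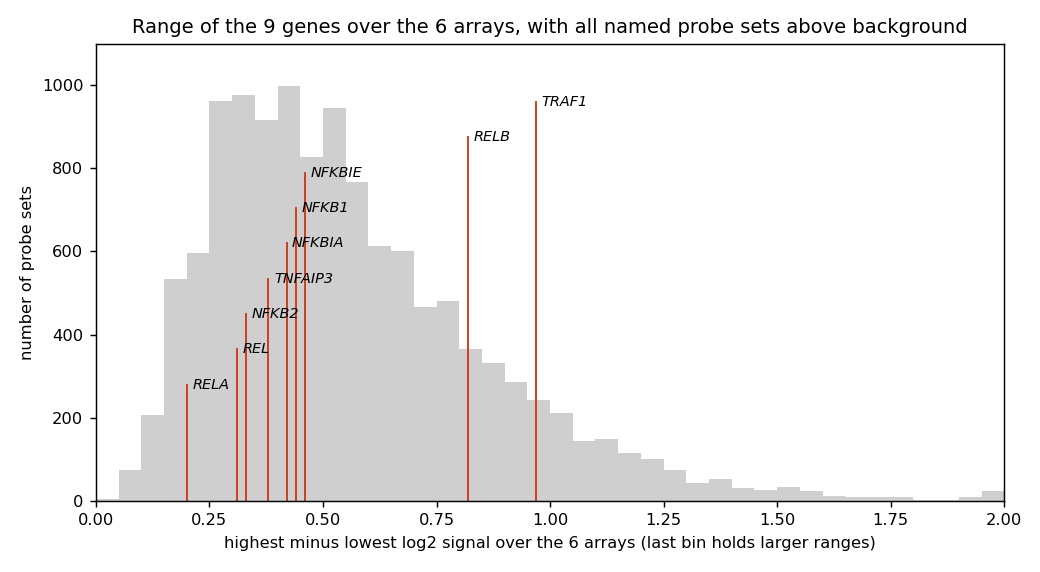
Histogram of the range over the 6 arrays (x axis, highest minus lowest log2 signal) for 12290 named probe sets above background (y axis, number of probe sets), with a red line at each of the 9 genes whose height serves the label only. RELA is at 0.20 and TRAF1 at 0.97, with the median of all probe sets at 0.50.

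With the let-7e-5p mimic, TRAF1 and RELB were at least 1.5-fold (0.58 log2) above mimic NC, 2 of the 9 genes, and 0 were as far below it. Of all named probe sets above background, 2.75% were at least 1.5-fold higher and 2.39% at least 1.5-fold lower in this comparison. TRAF1 differed by more than 99.4% of the probe sets did, and RELB by more than 98.7%. Since differences can depend on signal level, the same share was taken among probe sets within 0.5 log2 of each gene's mean level, a window chosen after the values were seen: 2.2% of 1427 probe sets near TRAF1 and 2.8% of 1396 near RELB were at least 1.5-fold higher. In these windows 2 probe sets, TRAF1 itself included, stood at least as far above mimic NC as TRAF1, and 10, RELB included, at least as far above it as RELB. At any size, 8 of the 9 genes were higher with let-7e-5p, against 48.6% of all probe sets, and NFKB2 was the exception. The median difference of the 9 genes was 0.28, and that of all probe sets 0.00. Without TRAF1 and RELB, a subset also chosen after the values were seen, 6 of 7 genes were higher and the median was 0.20.

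With the miR-146a-5p mimic all 9 genes were above mimic NC, from 0.03 for NFKB1 to 0.55 for TRAF1, against 50.4% of all probe sets. None was 1.5-fold higher or lower, where the background was 3.32% higher and 2.6% lower. The median difference was 0.19, and 0.18 over the 7 genes without TRAF1 and RELB, against 0.01 for all probe sets. In size, the TRAF1 difference exceeded that of 92.8% of probe sets and the RELB difference, 0.50, that of 90.9%.

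With let-7d-3p, 7 of the 9 genes were higher and NFKB2 and TNFAIP3 lower, against 46.0% of all probe sets higher. The differences of 5 genes, RELA, REL, NFKBIA, TNFAIP3 and TRAF1, were within 0.07 of 0, and the median over the 9 was 0.04. NFKBIE at 0.46, 1.38-fold, and RELB at 0.39 stood apart. None was 1.5-fold away from mimic NC in either direction, where 3.43% of probe sets were higher and 3.56% lower.

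With miR-130a-3p, 5 genes were higher and 4 lower than with mimic NC, against 50.3% of all probe sets higher. RELA, NFKBIA and TNFAIP3 were each 0.14 lower and REL 0.07 lower, and for these 4 genes this was the lowest of the 6 arrays. TRAF1, 0.39 higher, was the exception in size. No gene was 1.5-fold higher or lower, against 3.72% and 3.27% of probe sets.

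With miR-151a-3p, 8 of the 9 genes were higher, against 53.2% of all probe sets, and NFKBIA was 0.01 lower. RELB at 0.36, NFKBIE at 0.32 and TNFAIP3 at 0.24 led, and the median was 0.16. No gene was 1.5-fold higher or lower, where 4.12% and 4.21% of probe sets were. This mimic had the largest share of all probe sets past 1.5-fold, yet at such shares finding none among 9 genes is not unusual.

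**Figure D3:**
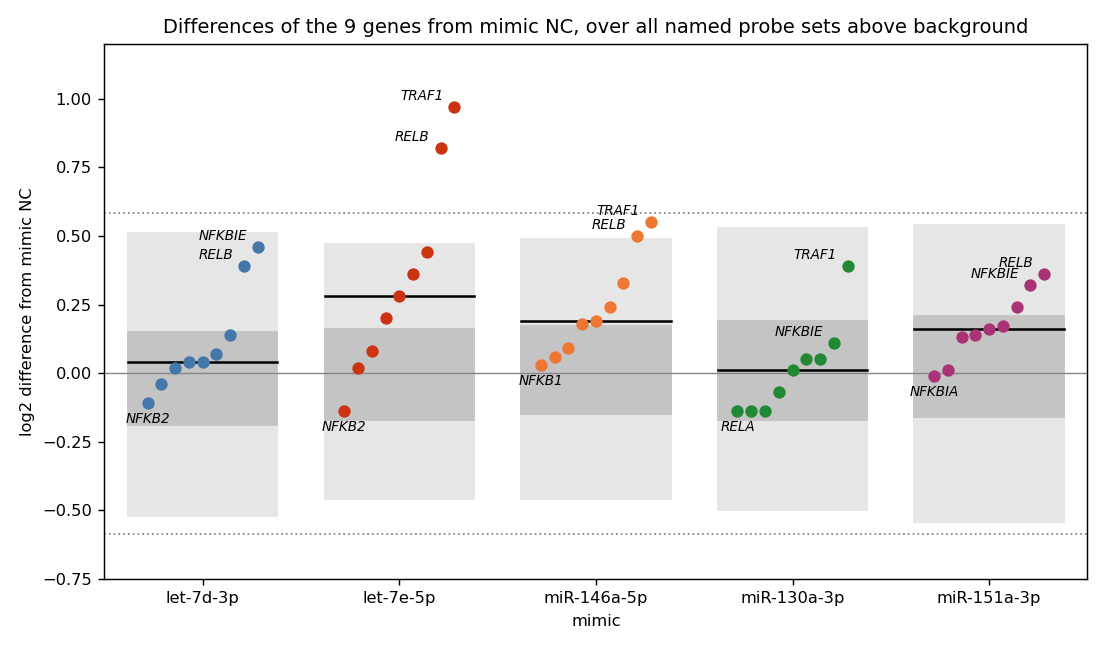
Log2 difference from mimic NC (y axis) of the 9 genes (points) with each mimic (x axis), with the gene median as a black line, the interquartile range of all named probe sets above background in dark grey, their 5th to 95th percentile in light grey, and 1.5-fold as dotted lines. TRAF1 at 0.97 and RELB at 0.82 with let-7e-5p lie outside the dotted lines.

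All 5 comparisons share the same control array, and for some of these genes that array was the lowest. It was the lowest of the 6 for 4 of the 9 genes, NFKB1, RELB, NFKBIE and TRAF1, and the highest for 0, against 14.1% and 13.0% of all probe sets. For each of these 4 genes the differences from mimic NC above therefore share 1 control value, and a low control and a rise shared by the mimics cannot be told apart. The miR-130a-3p array was the lowest for another 4 genes, RELA, REL, NFKBIA and TNFAIP3, against 15.4% of all probe sets, and the highest for 0, against 17.9%. At the other end, let-7e-5p gave the highest array for NFKB1, RELB, NFKBIA and TRAF1, and miR-146a-5p for NFKB2, RELA and REL, against 13.1% and 15.7% of all probe sets.

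Each mimic was therefore also set beside the median of the remaining 4 mimics, which leaves the control out. TRAF1 with let-7e-5p stayed past 1.5-fold, 0.70 higher or 1.63-fold, as did 1.94% of all probe sets, whereas RELB with let-7e-5p was 0.44 higher, 1.36-fold. NFKB1 and NFKBIA with let-7e-5p were 0.34 and 0.28 higher, and NFKB2 was 0.22 lower. In all 6 of the 9 genes were higher with let-7e-5p, against 47.5% of all probe sets. With miR-146a-5p 7 of the 9 genes were higher, TRAF1 by 0.28 and NFKB2 by 0.24, against 50.5% of all probe sets. With miR-130a-3p 1 of the 9 genes was higher, TRAF1 by 0.04, against 50.6% of all probe sets, and RELB was 0.40 and TNFAIP3 0.33 lower. With let-7d-3p 3 of 9 were higher, against 44.5%, and TRAF1 was 0.40 lower. With miR-151a-3p 4 of 9 were higher, against 54.3%, and TRAF1 was 0.33 lower. Without the control, the median of the 9 genes was thus 0.10 with miR-146a-5p, 0.13 with let-7e-5p, -0.04 with let-7d-3p, -0.02 with miR-151a-3p and -0.18 with miR-130a-3p.

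**Figure D4:**
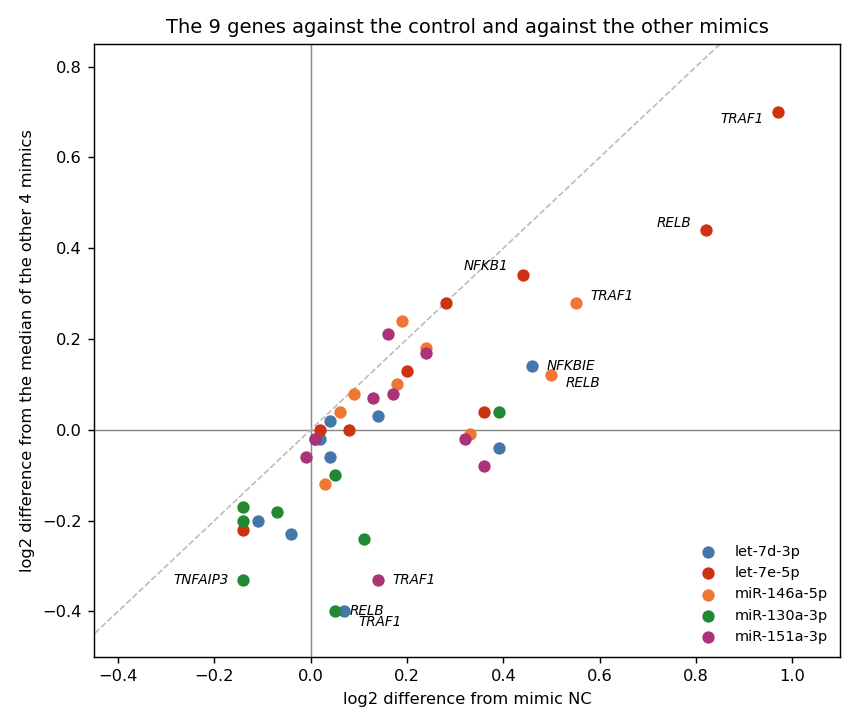
Log2 difference of each gene from the median of the other 4 mimics (y axis) against its difference from mimic NC (x axis), 1 point per gene and mimic, with equality dashed. Most points lie below the dashed line, and TRAF1 with let-7e-5p, at 0.97 and 0.70, is farthest from both axes.

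Promoter letters were read for the 10 genes because most of them are themselves driven by NF-kB. RefSeq windows of 300 bases, 250 before and 50 after each start (GRCh38.p14), were given for 8 genes in 14 windows, and RELB and NFKBIE were not among them. The search used the kappaB consensus in its 10-base form, which is 3 G, a purine, any 2 bases, 2 pyrimidines and 2 C, on both strands, and overlapping matches form 1 run of capitals. At least 1 match was found in 7 of the 14 windows, and in 3956 of all 35116 windows of the table (11.3%). The 7 windows include BIRC3, which was not measured, and NFKB2 more than once. Since the genes were listed for their place in the pathway, the shares are a description and not a test. NFKB1, NFKB2, REL, NFKBIA, TNFAIP3 and BIRC3 had a match, and RELA and TRAF1 had none in their windows. Shown are 3 windows of genes that took different sides with let-7e-5p: NFKB1 (chr4:102501109-102501408, plus strand), NFKB2 (chr10:102394328-102394627, plus strand) and NFKBIA (chr14:35404700-35404999, minus strand), each on the strand of its gene with the matches in capitals.
NFKB1: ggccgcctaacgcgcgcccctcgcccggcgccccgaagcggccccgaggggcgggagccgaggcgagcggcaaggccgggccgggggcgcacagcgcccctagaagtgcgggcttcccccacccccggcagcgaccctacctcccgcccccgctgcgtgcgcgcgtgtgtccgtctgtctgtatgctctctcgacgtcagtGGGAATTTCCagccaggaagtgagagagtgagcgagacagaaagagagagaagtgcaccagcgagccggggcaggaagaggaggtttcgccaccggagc
NFKB2: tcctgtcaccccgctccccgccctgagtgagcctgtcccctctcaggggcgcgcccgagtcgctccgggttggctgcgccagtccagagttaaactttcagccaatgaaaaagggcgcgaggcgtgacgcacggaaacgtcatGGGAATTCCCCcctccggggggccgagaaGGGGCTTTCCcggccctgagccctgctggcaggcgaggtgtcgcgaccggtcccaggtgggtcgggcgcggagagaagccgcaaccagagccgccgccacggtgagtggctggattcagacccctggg
NFKBIA: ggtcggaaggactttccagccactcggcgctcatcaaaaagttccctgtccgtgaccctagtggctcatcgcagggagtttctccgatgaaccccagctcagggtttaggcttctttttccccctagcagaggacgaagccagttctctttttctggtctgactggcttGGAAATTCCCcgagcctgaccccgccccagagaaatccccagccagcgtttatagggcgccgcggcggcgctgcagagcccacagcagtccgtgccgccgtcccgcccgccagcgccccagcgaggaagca
Counted from the start, the NFKB1 match began at position -49 and the NFKBIA match at -81, and NFKB2 had matches from positions -107 and -78 in the window shown. Another NFKB2 window, not shown, had matches from positions -176 and -21. NFKB1 and NFKBIA were 0.44 and 0.28 higher with let-7e-5p and NFKB2 was 0.14 lower, while TRAF1, 0.97 higher, had no match in 3 windows. A match of letters is a description and says nothing of binding in these cells.

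The pathway around the 9 genes was read from lists of its kinases, inhibitors and targets, whose counts stand beside 46.0% to 53.2% of all probe sets higher at any size. Of the IKK complex and upstream adaptors, 18 of 23 listed genes were measured, all above background. With let-7d-3p 3 of these 18 were higher and 15 lower (median -0.18), and with miR-130a-3p 3 were higher and 14 lower (median -0.14). With let-7e-5p 10 were higher (median 0.02), with miR-146a-5p 11 (median 0.05) and with miR-151a-3p 6 (median -0.04). Set beside the remaining 4 mimics instead of the control, the median of the list was 0.00 with miR-130a-3p, 0.08 with miR-151a-3p and -0.13 with let-7d-3p. CHUK, which encodes the IKK-alpha kinase, was above mimic NC with all 5 mimics: it had 7.21 with let-7e-5p, 7.18 with let-7d-3p, 7.00 with miR-146a-5p, 6.83 with miR-151a-3p and 7.23 with miR-130a-3p, against 6.47 with mimic NC. Its levels were 1.64-fold, 1.67-fold and 1.69-fold that of the control with let-7d-3p, let-7e-5p and miR-130a-3p. Beside the remaining 4 mimics the same differences of CHUK were 0.08, 0.12 and 0.14 log2, so none of these calls stayed past 1.5-fold. With 1 control array, a low control and a rise shared by the mimics cannot be told apart. The largest difference in the list was that of MAP3K14, which had 6.48 with let-7d-3p and 7.58 with mimic NC. MYD88, the adaptor of Toll-like and interleukin-1 receptors, had 13.43 with let-7d-3p and 13.47 with miR-130a-3p, against 13.98 with mimic NC.

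TRAF6 and IRAK1 are signalling genes known in human cells as targets of miR-146a-5p. TRAF6 had 10.58 with miR-146a-5p, and 11.08 with let-7e-5p, 11.07 with let-7d-3p, 11.01 with miR-151a-3p and 10.85 with miR-130a-3p, against 11.05 with mimic NC. The miR-146a-5p array was thus the lowest, 1.39-fold below the control, in the same culture in which all 9 subunit and feedback genes were above it. IRAK1 had no named probe set. IRAK2, a related kinase, had 8.17 with miR-151a-3p and 6.79 with miR-130a-3p, against 7.54 with mimic NC.

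Other IkB proteins and feedback inhibitors numbered 12 above background among 14 measured, and none was 1.5-fold from mimic NC with any mimic. Of all probe sets, 2.75% to 4.12% were at least 1.5-fold higher and 2.39% to 4.21% at least 1.5-fold lower. At such shares, finding none among 12 genes in any 1 comparison is not unusual. Their medians ran from -0.12 with let-7d-3p to 0.08 with miR-146a-5p. CYLD, a deubiquitinase that restrains IKK, had 10.35 with miR-146a-5p and 9.30 with miR-151a-3p, against 9.87 with mimic NC. TAX1BP1, a partner of TNFAIP3, was between 0.17 and 0.29 above mimic NC with every mimic, and between -0.08 and 0.06 beside the remaining mimics.

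NF-kB target genes numbered 23 above background among 26 measured. With let-7e-5p 19 were higher and 4 lower (median 0.16). CCL20, a chemokine for lymphocytes and dendritic cells, had 14.36 with let-7e-5p and 13.49 with mimic NC. CXCL8, which attracts neutrophils, had 13.12 with let-7e-5p and 12.38 with mimic NC. At the low end were EBI3 and PTGS2. EBI3 had 4.81 with let-7e-5p and 5.48 with mimic NC, on either side of background, a difference of -0.67. PTGS2 had 6.43 with let-7e-5p and 6.62 with mimic NC. With miR-146a-5p 9 were higher and 14 lower (median -0.07). Neither the let-7e-5p nor the miR-146a-5p median exceeded the typical size of a single probe set's difference, 0.16 over all probe sets in each comparison. That size is not the spread of a median over a list. The lowest was CXCL1, with 5.19 with miR-146a-5p and 5.81 with mimic NC, on either side of background. CCL20 had 13.02 with miR-146a-5p, against 13.49 with mimic NC, and IL1RN, the interleukin-1 receptor antagonist, had 15.23 with miR-146a-5p and 14.65 with mimic NC. With miR-151a-3p the counts were again 9 higher and 14 lower, with ICAM1, an adhesion molecule, at 13.31 with miR-151a-3p and 13.94 with mimic NC. With let-7d-3p and with miR-130a-3p 14 were higher and 9 lower. CXCL8 had 13.19 with let-7d-3p and 12.95 with miR-130a-3p, against 12.38 with mimic NC. Beside the remaining mimics, CXCL8 was no longer past 1.5-fold, at 0.39 log2 with let-7d-3p and 0.32 with let-7e-5p. CCL20 with let-7e-5p, 0.62 higher, and ICAM1 with miR-151a-3p, 0.78 lower, stayed past it.

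Interferon-stimulated genes, the antiviral programme of the cell, stood farther from mimic NC by their median than the 9 genes did with each of the 5 mimics. Their median difference over 28 genes was 0.32 with let-7e-5p, -0.61 with let-7d-3p, 0.49 with miR-146a-5p, -0.38 with miR-151a-3p and -0.26 with miR-130a-3p. The 2 mimics with positive medians in that list were also those with the highest medians of the 9 genes, 0.28 and 0.19, while with miR-151a-3p the 9 genes had a median of 0.16 beside -0.38. Beside the remaining 4 mimics the medians of this list were 0.78 with miR-146a-5p, 0.57 with let-7e-5p and -0.72 with let-7d-3p. What part these genes have in the values of the 9 was not tested.

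**Figure D5:**
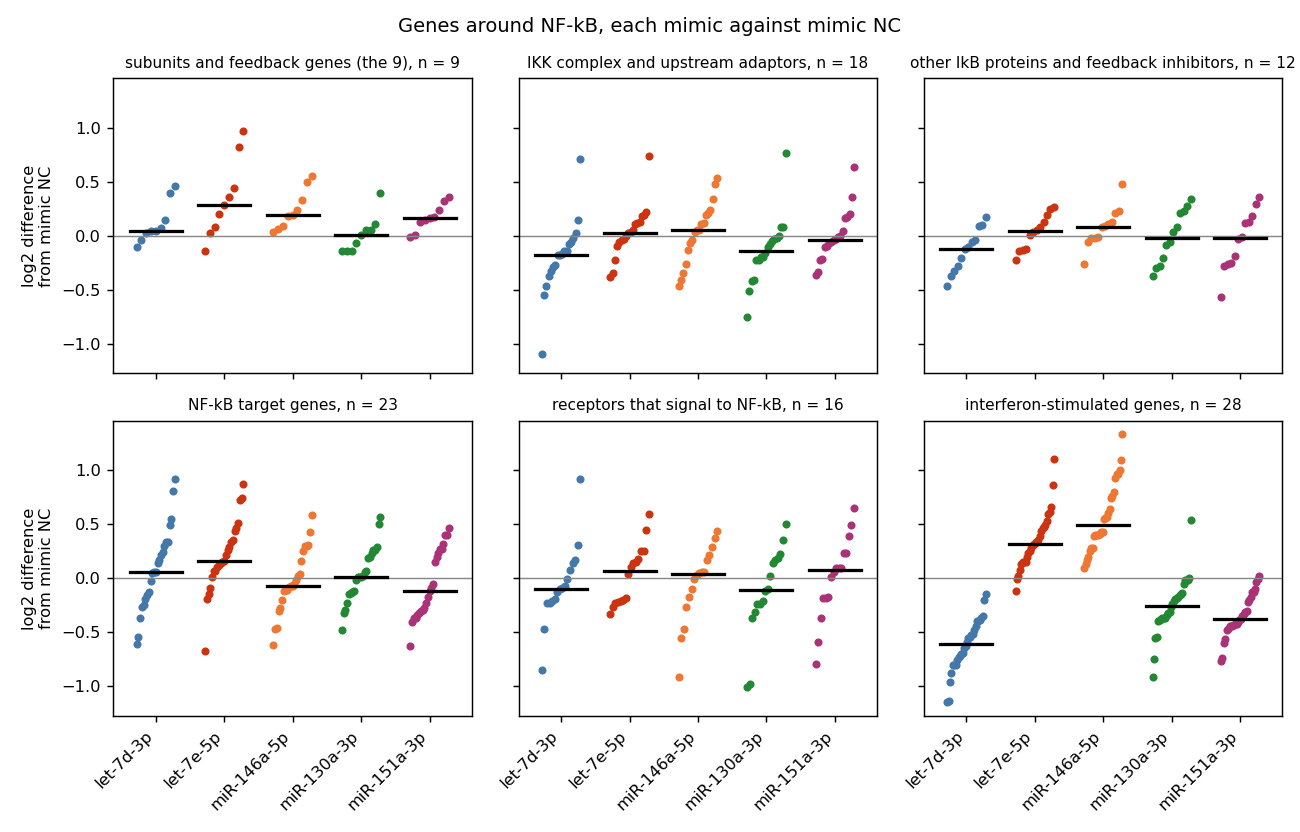
Log2 difference from mimic NC (y axis) of single genes (points) and list medians (black lines) with each mimic (x axis), for the 9 genes and 5 lists around NF-kB. The medians of the 9 genes run from 0.01 to 0.28 and those of the interferon-stimulated genes from -0.61 to 0.49.

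TRAF1 and RELB were the genes whose range over the 6 arrays passed 1.5-fold, and for each the probe sets with the most similar pattern were sought among 3593 others with as wide a range and above background on all arrays. The measure was Pearson's r over the 6 levels, given as a description, since the arrays share their handling and 6 points fix r poorly. For TRAF1 they were SEMA3C, a secreted semaphorin (r = 0.989), GIMAP8 (0.969), RAB23, a small GTPase (0.965), LTBP4 (0.962) and RPA3, a subunit of replication protein A (0.958). SEMA3C had 8.84 with let-7e-5p, 7.91 with let-7d-3p, 8.30 with miR-146a-5p, 7.83 with miR-151a-3p and 8.16 with miR-130a-3p, against 7.67 with mimic NC. Its let-7e-5p array was highest as for TRAF1, a likeness that follows from picking it by r over these same levels. For RELB they were SLC52A2, a riboflavin transporter (0.959), SPICE1 (0.950), DNAJB5 (0.930), RBM43 (0.929) and CAV2, a caveolin (0.919). In all 26 probe sets reached an r of 0.9 with TRAF1 and 8 with RELB. TRAF1 and RELB correlated with each other at 0.76.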

How the data were processed

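RNA of 6 THP-1 cultures, 1 per group, was hybridised to 1 Human Clariom S array each. The authors deposited log2 signals per probe set, which per the labels were made with RMA in Transcriptome Analysis Console 4.0. RMA gives the arrays it normalizes together a shared distribution, so a shift of all genes in one culture would not be seen. The genome build of the probe sets is not given in the sources used here. The labels name Trizol for RNA extraction and the methods a column kit.

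Probe sets were named through the platform annotation: 17709 had 1 gene symbol and 3739 had none, and all 17709 were found by Entrez identifier in RefSeq with the same symbol. Differences are mimic minus mimic NC on the deposited log2 scale, and a call is a difference of at least 1.5-fold among 12290 probe sets above background on at least 1 array. Since every group is a single array, no test, error or p-value was computed, and the number of arrays limits the precision. Alternatives were repeated quantile normalization, median centring, a lowess trend (span 0.3), a pseudocount of 32, the mean in place of the median, other thresholds and filters, and the other 4 mimics as comparator. The scripts were tested on simulated data with 200 changed probe sets. Python 3.11.15, pandas 2.3.3, numpy 2.4.6, statsmodels 0.14.6 and matplotlib 3.10.9 were used.

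The 10 genes and the gene lists were chosen with earlier results of these data known. The text names all 10 genes, TRAF6 and IRAK1, and the 5 probe sets most like any member with a range of at least 1.5-fold. Other genes of the lists around NF-kB were picked from the 2 highest and 2 lowest above background of each list and comparison. Not all of those genes are named.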

Additional observations from a re-analysis of the deposited data

How the results depend on the processing

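Repeated quantile normalization, median centring, the lowess trend, a pseudocount of 32 and the mean over genes moved no count past 1.5 times and no median by over 0.1 log2, and the differences of single genes stayed within 0.1 in 45 of 45 cases where these were recomputed. The comparator mattered more. Against the median of the other 4 mimics, 24 of 45 single differences stayed within 0.1 and 21 did not. The number of genes higher was then 4 with miR-151a-3p, 3 with let-7d-3p and 1 with miR-130a-3p. The median was 0.13 with let-7e-5p, -0.18 with miR-130a-3p and, with the sign turned, -0.02 with miR-151a-3p, and 1 gene, TRAF1, was 1.5-fold higher with let-7e-5p. The alternative replaces the control by 4 other arrays, and the cause of these shifts was not tested. At a lower threshold, just above 0.32 log2, the genes higher numbered 4 with let-7e-5p, 2 with let-7d-3p and 3 with miR-146a-5p. With miR-151a-3p and with miR-130a-3p the number was 1 each, and NFKBIE with miR-151a-3p, at 0.32, fell just short. At 2-fold the number with let-7e-5p was 0. The share of all probe sets was not computed at the lower threshold or at 2-fold, so these counts have no background beside them. The shares of all probe sets past 1.5-fold moved with the filter on background: without it, let-7d-3p higher was 5.49% and miR-146a-5p lower 4.54%, and with probe sets above background on all arrays these were 2.06% and 1.56%, and miR-151a-3p lower was 2.64%. Leaving out TRAF1 and RELB, chosen after seeing the data, moved no median by over 0.1. No paired analysis was possible because no group had a second array. Precision is limited by the single array per group, and not by signal near background, which all 9 genes exceeded on all 6 arrays.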

Other observations

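Receptors that signal to NF-kB were read as a further list, with 16 genes above background among 18 measured. Of all probe sets, 46.0% were higher with let-7d-3p, 50.3% with miR-130a-3p and 48.6% with let-7e-5p. Over the 5 mimics, 2.75% to 4.12% were at least 1.5-fold higher and 2.39% to 4.21% at least 1.5-fold lower. With let-7d-3p 5 were higher and 11 lower (median -0.10), and TLR4, the receptor for bacterial lipopolysaccharide, had 11.17 with let-7d-3p, against 12.02 with mimic NC. With miR-130a-3p 7 were higher and 9 lower (median -0.11), and LTBR, the lymphotoxin beta receptor that feeds the branch of NFKB2 and RELB, had 9.12 with miR-130a-3p, against 10.10 with mimic NC. CD14, a co-receptor of TLR4, had 11.54 with miR-151a-3p, 11.39 with miR-130a-3p and 11.26 with miR-146a-5p, against 10.89 with mimic NC. TLR5, the flagellin receptor, lay near background, with 6.86 with let-7d-3p, 5.15 with miR-151a-3p, 4.93 with miR-130a-3p and 5.03 with miR-146a-5p, against 5.94 with mimic NC. IL1RAP, the shared chain of the interleukin-1 receptor family, had 7.89 with let-7e-5p, against 7.30 with mimic NC. Set beside the remaining 4 mimics, IL1RAP with let-7e-5p was 0.29 log2 higher, CD14 with miR-151a-3p 0.53 higher and TLR5 with miR-130a-3p 0.52 lower. These 3 were no longer past 1.5-fold, nor was TLR5 with miR-151a-3p and miR-146a-5p, 0.24 and 0.42 lower. LTBR with miR-130a-3p, 0.74 lower, and TLR4 with let-7d-3p, 0.60 lower, stayed past it. TLR5 with let-7d-3p also stayed past it, at 1.77 higher, but most of the arrays it was set beside lay below background for this gene. With let-7e-5p 9 of the 16 receptors were higher, near the 48.6% of all probe sets, with a median of 0.07, beside 8 of the 9 subunit and feedback genes.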
